A study of Homo sapiens with 64 samples.

Results

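The comparison described here set the effect of label retention in RKO against that in SW48, as the change from non-LRCs to LRCs in RKO minus the same change in SW48. It used 16 sorted libraries, 4 in each of 4 groups, of the 64 samples of the series, of which 48 were sorted libraries of 6 colorectal cancer (CRC) cell lines. RKO and SW48 are the lines of the colon cancer subtype CCS2, and both are human established lines. Cells of every group were grown as non-adherent spheroids in serum-free medium with EGF and bFGF, labelled with the dye CFSE, which is diluted at each division, and sorted by flow cytometry on day 6. LRCs were the cells that had kept the dye, and the non-LRCs, labelled BULK, were the reference in the same line. Each line is a single cultured line, and the 4 replicates of a group were separate samples of that line. The paper describes them as biological quadruplicates without saying which steps were repeated. The p-values measure the spread between these samples, which may be partly technical. The measured features were all 54127 listed genes, of which 14240 had at least 10 counts in at least 4 of the 16 libraries and were tested.

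Cells that keep a dye have divided little since labelling, and transcripts needed for S phase and mitosis are therefore usually lower in them. In cells with an intact p53 pathway, arrest is accompanied by p53 target transcripts such as CDKN1A, which encodes the CDK inhibitor p21. RKO and SW48 depend on different oncogenic lesions, with an activated BRAF kinase in RKO and an activated β-catenin in SW48. Notch, Wnt, Hedgehog, TGF-beta and YAP/TEAD signaling set the balance of stem-like and differentiated states in intestinal epithelium, and their target genes are therefore described by pathway below.

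Reads counted on genes ranged from 12717796 to 19874005 per library, with a median of 15157348.5. The first principal component (91.2% of the variance) separated the lines and the second (2.76%) separated LRCs from non-LRCs within each line. Replicate 2 of SW48 stood apart in both populations on the third (1.36%), and the SW48 non-LRC library of replicate 2 held 413 CPM (TMM-normalized counts relative to library size) of MKI67, a marker of cycling cells, against 46.6, 129 and 179 CPM in the other 3. The biological coefficient of variation was 0.165 in SW48 non-LRCs and 0.134 in SW48 LRCs, against 0.082 and 0.0936 in the corresponding RKO groups. The share of reads on mitochondrially encoded genes was higher in LRCs, at 7.01% to 10.5% against 4.47% to 6.57% in RKO and 13.8% to 14.2% against 9.66% to 11.3% in SW48, and its part in the results was not tested. The intestinal factor CDX2 ranged from 16.4 to 21 CPM in RKO and from 29.7 to 49.8 CPM in SW48, without TMM normalization, while KRT20, a marker of differentiated colon epithelium, stayed at or below 0.635 CPM.

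Of 9 markers of leukocytes, endothelium and stroma, 8 matched a symbol, and PECAM1 did not, so its level was not looked up. Of these 8, 4 were expressed enough to be tested, and none passed the test in either line. The summed level of these 4 was 930 to 1060 CPM in RKO non-LRCs and 1160 to 1510 CPM in RKO LRCs, nearly all of it CD68, a lysosomal glycoprotein, and 43.2 to 81.7 and 62.2 to 102 CPM in the SW48 groups. CD3E had 0 counts in all 16 libraries, and the leukocyte gene PTPRC had 0 counts in the 8 RKO libraries and 7.38 to 20.9 CPM in the 8 SW48 libraries, also without TMM normalization. Reads carried over between lines were bounded by genes that were high in one line and absent from the other. MAOB, at 156 CPM in SW48, had 0 counts in the 4 RKO LRC libraries, which allowed at most 0.0302% of SW48 reads there (3 counts over the group, for counting error only), and FRMD6, at 187 CPM in RKO, allowed at most 0.0274% of RKO reads in SW48 LRCs.

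Most of what changed in LRCs was measured in RKO. In the fit reported here, more of the called differences were higher in RKO than lower. The LRC effect differed between the lines for 877 of 14240 tested genes (6.16%) at an adjusted p under 0.05. Here and below, adjusted p is the Benjamini-Hochberg value over all tested genes of the quasi-likelihood test of edgeR. Values after ± are standard errors (SE) for log2 changes and SD for CPM, with n = 4 libraries a group. The SE was derived from the test, as the absolute log2 change over the square root of its F statistic. It uses a spread per gene shared by all 16 libraries, so the wider SW48 spread also entered the RKO values. The effect was higher in RKO for 623 genes (4.38%) and lower for 254 (1.78%). These are signed effects, so a larger fall in RKO counts as lower. The share of called differences that were higher in RKO was 71.0%, against 56.5% with DESeq2, 58.4% with RLE size factors and 81.6% with library sizes alone. Without both libraries of SW48 replicate 2, 874 genes were higher and 903 lower. The count was 1624 without the SW48 non-LRC library of replicate 2 and 583 without the RKO LRC library of replicate 1. In RKO alone, 2420 genes (17.0%) rose in LRCs and 1810 (12.7%) fell. In SW48, 256 (1.8%) rose and 95 (0.667%) fell, with 2362 genes at an unadjusted p under 0.05. The count of SW48 calls fell from 351 to 144, 201, 156 and 205 without the SW48 non-LRC library of replicate 4 or the LRC library of replicate 1, 3 or 4. Fewer cells of a kind and less RNA per cell cannot be told apart in these bulk libraries. Same-numbered LRC and non-LRC libraries deviated together in SW48, and with the replicate number as a block 576 genes rose and 591 fell in SW48, and the difference between the lines was called for 1680 genes (1101 higher and 579 lower in RKO).

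Of the genes that passed the test in both lines, 167 changed in the same direction, 116 upward and 51 downward, and 13 changed in opposite directions. The 167 genes were 47.6% of the SW48 calls and 3.95% of the RKO calls. Among the 2420 genes that rose in RKO, the median log2 change was 0.595 in RKO and 0.091 in SW48, and 1640 had a positive value in SW48. Among the 256 genes that rose in SW48, the median was 0.806 in SW48 and 0.516 in RKO. Across the 11291 genes with a mean of at least 1 CPM in each line, which share libraries and depth, the effects in both lines had a Pearson r of 0.392, and their SD was 0.428 in RKO and 0.233 in SW48 on the log2 scale. The median difference over all tested genes was 0.058, but it was 0.35 among the tenth of genes with the lowest level (0.227 to 0.986 CPM) and -0.018 among the tenth with the highest. In the tenth with the lowest level the median change was 0.362 in RKO and 0.065 in SW48. Called differences there were 25 higher and 2 lower in RKO. They were 95 higher and 14 lower in the tenth at 15.5 to 24.6 CPM. In the tenth with the highest level they were 38 higher and 58 lower, so the excess of higher ones did not hold at every level. An effect that passed the test in only 1 line is not shown to differ between the lines unless the difference itself passed, as it did for 777 genes called in RKO alone.

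**Figure D1:**
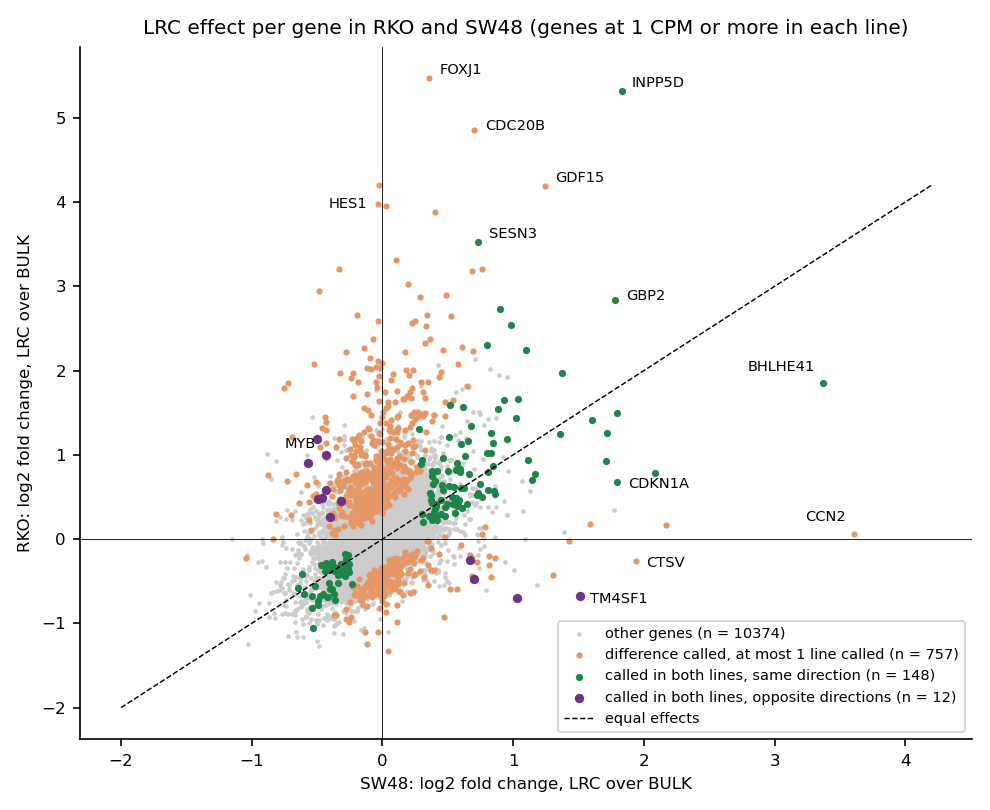
Log2 fold change from non-LRCs (BULK) to LRCs in SW48 (horizontal axis) and RKO (vertical axis) for genes with at least 1 CPM in each line. Each point is a gene, the dashed line marks equal effects, and colors mark the genes that passed the test for the difference or in both lines. Most genes with a called difference lie above the line near 0 in SW48, with INPP5D, CDC20B and FOXJ1 above 4.8 in RKO.

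Among genes at 1 CPM or more in each line, the 10 with the largest positive difference were low in RKO non-LRCs and higher in RKO LRCs. They were FOXJ1, PLCE1, CDC20B, HES1, MAL2, MYH15, INPP5D, PPL, PLEKHG4 and CD82, and each kept its call with each library left out in turn. HES1, the repressor that is the direct target of Notch signaling in intestinal cells, lies at GRCh37 chr3:193853937-193856521, plus strand. It stood at 0.774, 0.418, 0.149 and 0.232 CPM in the 4 RKO non-LRC libraries and at 7.71, 8.03, 3.75 and 5.43 CPM in RKO LRCs, against 65.3, 65, 69.7 and 63.1 CPM in SW48 non-LRCs and 61.4, 74.3, 67.2 and 54.5 CPM in SW48 LRCs. The RKO groups did not overlap and the SW48 groups did. The log2 change was 3.98 ± 0.32 in RKO (adjusted p = 1.43e-07) and -0.03 ± 0.16 in SW48 (adjusted p = 0.95), a difference of 4.01 ± 0.36 (adjusted p = 5.44e-06). HES1 in RKO LRCs stood at 9.69% of its level in SW48 LRCs, far above the 0.0302% that carried-over reads could give. The 250 bases before its start in RefSeq, matched exactly to GRCh37 at chr3:193853687-193853936, plus strand, are shown because HES1 is regulated through RBPJ, the DNA-binding partner of Notch.
HES1: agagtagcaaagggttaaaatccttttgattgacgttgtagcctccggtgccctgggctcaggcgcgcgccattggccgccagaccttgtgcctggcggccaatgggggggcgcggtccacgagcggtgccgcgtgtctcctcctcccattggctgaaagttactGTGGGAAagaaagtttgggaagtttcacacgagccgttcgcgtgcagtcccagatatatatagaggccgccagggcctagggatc
The capitals mark the RBPJ letters GTGGGAA, found once, starting 85 bases before the start site. These letters were present on either strand in 1880 of 34788 RefSeq upstream sequences of 250 bases (5.4%), so the match is a description only.

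FOXJ1, a transcription factor of motile cilia, showed the largest difference of the genes named by size. It was at 0, 0.239, 0.149 and 0.0581 CPM in RKO non-LRCs and 6.9, 5.03, 6.2 and 3.57 CPM in RKO LRCs, and at 1.1 to 3.44 and 1.33 to 3.78 CPM in the SW48 groups, which overlapped. The difference was 5.11 ± 0.74 (adjusted p = 0.000364), and the RKO non-LRC level rested on 7 counts over 4 libraries. CDC20B, a relative of the mitotic activator CDC20 whose gene hosts the miR-449 cluster, was at 0.232 to 1.27 CPM in RKO non-LRCs and 18.6 to 25.5 CPM in RKO LRCs, against 4.83 to 9.11 and 8.04 to 13.2 CPM in SW48 (difference 4.16 ± 0.39, adjusted p = 7.08e-06). CDC20B overlaps GPX8 on the opposite strand, and the strand setting of the counting was not given, and GPX8 changed by 0.01 in RKO and -0.83 in SW48. With the replicate block CDC20B also rose in SW48 (0.71 ± 0.16, adjusted p = 0.0161). PLCE1, a phospholipase C that binds Ras (GRCh37 chr10:95753688-96092580, plus strand), was at 0.141, 0.298, 0.668 and 0.116 CPM in RKO non-LRCs and 5.76, 6.83, 5.05 and 4.57 CPM in RKO LRCs. Its SW48 groups overlapped, at 4.06 to 5.64 and 4.06 to 6.52 CPM, and only the RKO non-LRCs were low (difference 4.23 ± 0.41, adjusted p = 7.89e-06).

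CD82, a tetraspanin, rose from 4.58, 3.82, 3.86 and 3.19 CPM in RKO non-LRCs to 51.1, 35, 35.3 and 32.5 CPM in RKO LRCs, while the SW48 groups overlapped at 19.5 to 26.4 and 21.5 to 25.9 CPM (difference 3.21 ± 0.21, adjusted p = 1.49e-07). MYH15, a myosin heavy chain gene, was at 6.08 to 8.02 CPM in RKO non-LRCs and 52.4 to 77.9 CPM in RKO LRCs, and had its 1 high SW48 value, 9.99 CPM, in the non-LRC library of replicate 2 (difference 3.54 ± 0.44). MAL2, a membrane proteolipid of transcytosis, PPL, the cytolinker periplakin, and PLEKHG4, a guanine nucleotide exchange factor, were all far higher in SW48 than in RKO. Their log2 changes in RKO were 3.96, 3.88 and 2.95, and in SW48 they were 0.03, 0.40 and -0.48, of which none passed the test, although PPL and PLEKHG4 did with the replicate block (adjusted p = 0.0105 and 0.0015). Their RKO LRC levels were 2.07%, 5.63% and 9.02% of those in SW48 LRCs. INPP5D, the phosphatase SHIP1, rose in both lines. It went from 0.141, 0.179, 0.297 and 0.116 to 10.1, 7.1, 6.2 and 6.43 CPM in RKO and from 8.78, 6.36, 7.31 and 7.31 to 26.4, 16, 29.2 and 34.1 CPM in SW48, without overlap in either line. The increase was 5.31 ± 0.36 in RKO and 1.83 ± 0.20 in SW48 on the log2 scale, and the difference passed the test (adjusted p = 0.000188).

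**Figure D2:**
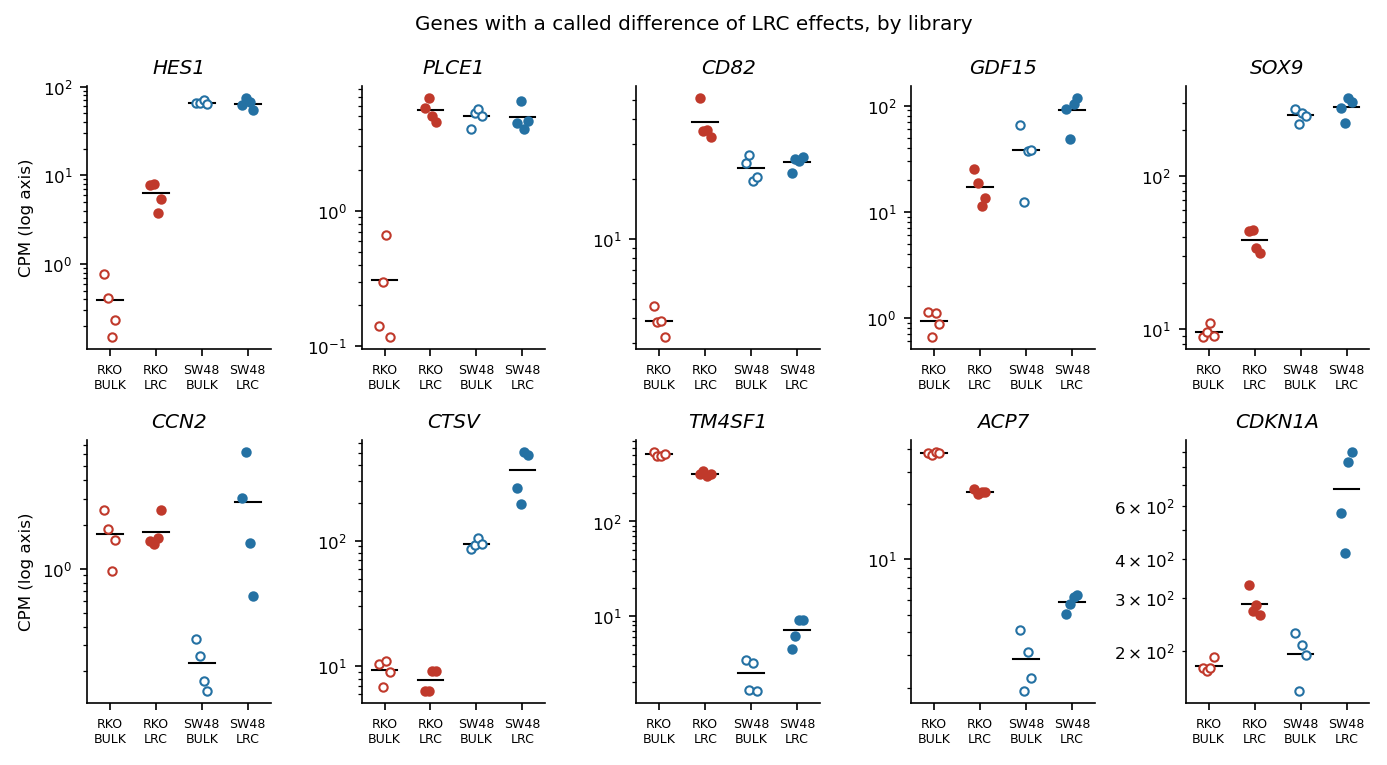
Level in every library of 10 genes with a called difference of LRC effects, in CPM on a log axis. Open circles are non-LRCs (BULK), filled circles are LRCs, red is RKO, blue is SW48, and each line marks the mean of 4 libraries. HES1, PLCE1, CD82, GDF15 and SOX9 differ between populations mainly in RKO, CCN2 and CTSV only in SW48 without overlap, and TM4SF1 and ACP7 move in opposite directions.

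p53 target genes rose in LRCs of both lines. Of 27 tested members of a list of 28, 22 passed the test upward in RKO and 14 in SW48, 13 of them in both, and none fell, against 17.0% and 1.8% of all tested genes upward. The median log2 change was 0.81 in RKO and 0.43 in SW48, against 0.050 and -0.018 over all tested genes. ZMAT3, an RNA-binding p53 target, FAS, the death receptor, and MDM2, the ubiquitin ligase that degrades p53, rose by 1.44 ± 0.13, 1.19 ± 0.13 and 1.02 ± 0.08 in RKO and by 1.02 ± 0.14, 0.95 ± 0.13 and 0.83 ± 0.08 in SW48, with no overlap between populations in either line, and their differences did not pass the test, although that of ZMAT3 did with the replicate block (0.41 ± 0.10, adjusted p = 0.0141). MDM2 was at 141 to 173 and 291 to 335 CPM in the RKO groups and at 73.7 to 83.8 and 120 to 146 CPM in the SW48 groups. BTG2, an antiproliferative gene, rose by 1.54 and 0.88, a difference that passed only with the block (adjusted p = 0.0231). With the block, 12 members were higher in RKO and 1 lower.

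A subset of p53 targets differed between the lines, with 6 members higher and 1 lower in RKO. GDF15, a stress-induced cytokine of the TGF-beta family, rose from 1.13, 0.656, 1.11 and 0.871 to 25.3, 18.5, 11.4 and 13.4 CPM in RKO. In SW48 it went from 65.3, 12.4, 37.5 and 38.2 to 92.6, 48.8, 103 and 118 CPM, with overlap because the non-LRC library of replicate 1 was above the LRC library of replicate 2. The rise passed the test in SW48 only with the block (adjusted p = 0.0645 without it and 0.000337 with it), and the difference was 2.95 ± 0.66 (adjusted p = 0.0119). PLK2, a stress-responsive polo-like kinase, rose by 3.03 ± 0.53 in RKO and 0.97 ± 0.14 in SW48 (adjusted p of the difference = 0.0395, not passing without RKO non-LRC 1 to 4, RKO LRC 1 or 4, SW48 non-LRC 1 or 4 or SW48 LRC 4, adjusted p up to 0.111). TP53INP1, an autophagy and apoptosis factor, was at 19.5 to 26 and 96.3 to 127 CPM in RKO and at 16.4 to 18.9 and 30.8 to 45.8 CPM in SW48, so it rose in both lines and more in RKO (difference 1.15 ± 0.18, adjusted p = 0.000646). SPATA18, a factor of mitochondrial quality control, RRM2B, the p53-inducible ribonucleotide reductase subunit, and TIGAR, a regulator of glycolysis, had differences of 1.5, 1.08 and 0.52. CDKN1A was the member that rose more in SW48.

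CDKN1A stood at 177, 172, 177 and 192 CPM in RKO non-LRCs, 329, 272, 283 and 263 CPM in RKO LRCs, 230, 148, 210 and 194 CPM in SW48 non-LRCs and 567, 421, 833 and 899 CPM in SW48 LRCs, with no overlap between populations in either line. The rise was 0.68 ± 0.18 in RKO (adjusted p = 0.00924) and 1.80 ± 0.18 in SW48 (adjusted p = 2.36e-05), and the difference of -1.12 ± 0.25 passed the test (adjusted p = 0.0132). In the list of CDK inhibitors, RB family members and D cyclins, 5 of 14 rose and 1 fell in RKO, and 2 rose in SW48. CDKN2B, the INK4 inhibitor p15, was at 50.5 to 61.5 CPM in RKO non-LRCs and 178 to 224 CPM in RKO LRCs, against 12.8 to 21.1 and 18.8 to 22.8 CPM in SW48 (difference 1.57 ± 0.17, adjusted p = 3.06e-05). CDKN2A, the INK4 inhibitor p16, was at 0 to 0.211 and 0.151 to 0.546 CPM in RKO and at 1.44 to 3.12 and 0.83 to 1.26 CPM in SW48, and its difference of 2.68 ± 0.75 (adjusted p = 0.0412) ceased to pass on removal of any 1 of 10 of the 16 libraries (adjusted p up to 0.126). CCNG2, an atypical cyclin of arrested cells, rose by 0.52 in RKO and 0.72 in SW48. CDKN1B and CDKN1C, the inhibitors p27 and p57, did not pass the test in either line, with changes of -0.13 and 0.13 in RKO and -0.18 and 0.47 in SW48.

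**Figure D3:**
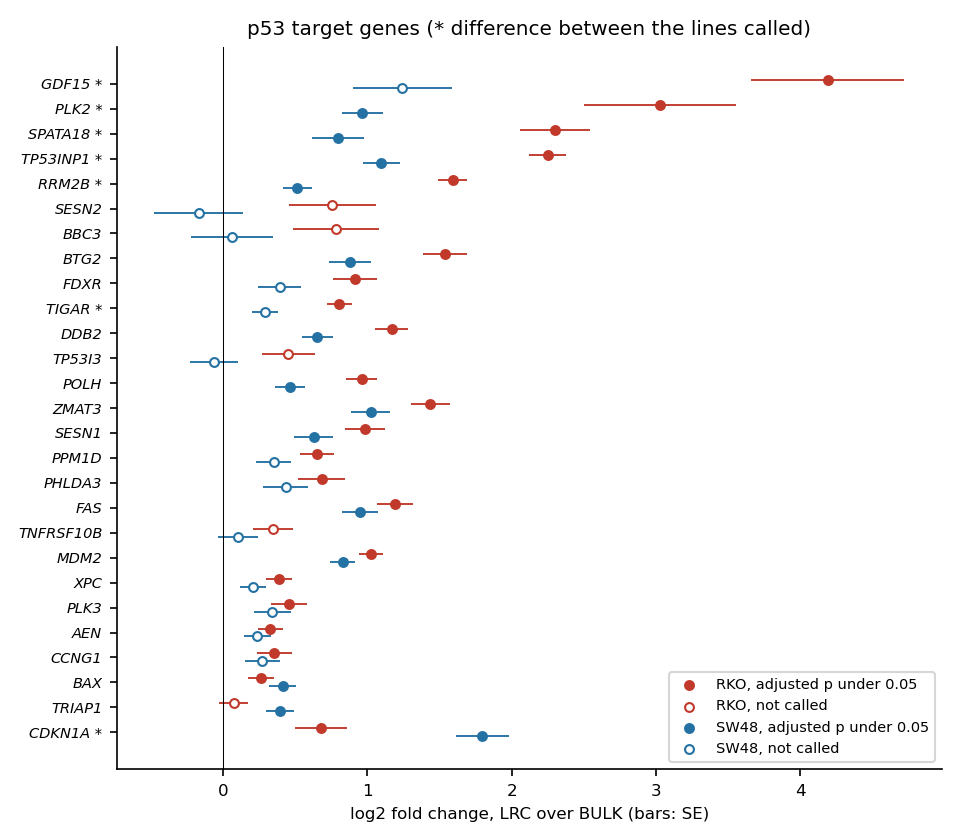
Log2 fold change from non-LRCs to LRCs of the 27 tested p53 target genes in RKO (red) and SW48 (blue), with SE as bars. Filled points passed the test and asterisks mark genes whose difference between the lines passed it. GDF15, PLK2, SPATA18, TP53INP1, RRM2B and TIGAR rise more in RKO, and CDKN1A rises more in SW48.

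The 10 genes with the largest negative difference were mostly raised in SW48 LRCs. Of the 9 described here, CCN2, CTSV, TM4SF1, GLIPR1, ACP7, ECM1, PRSS22 and SPNS2 passed the test upward in SW48, and RPSAP52 did not. CCN2, a matricellular protein and a target of YAP/TEAD and TGF-beta signaling (GRCh37 chr6:132269316-132272512, minus strand), was at 0.333, 0.255, 0.173 and 0.146 CPM in SW48 non-LRCs and 3.01, 6.24, 1.49 and 0.649 CPM in SW48 LRCs. In RKO it was at 2.53, 1.85, 0.965 and 1.57 and 1.54, 1.48, 1.61 and 2.51 CPM, and the groups overlapped. The rise in SW48 was 3.61 ± 0.63 (adjusted p = 0.00374) and the difference was -3.55 ± 0.81 (adjusted p = 0.0134). The SW48 LRC libraries spread widely, with replicate 2 the highest and replicate 4 the lowest. The 250 bases before the start site, at GRCh37 chr6:132272513-132272762, minus strand, are shown for their TEAD letters.
CCN2: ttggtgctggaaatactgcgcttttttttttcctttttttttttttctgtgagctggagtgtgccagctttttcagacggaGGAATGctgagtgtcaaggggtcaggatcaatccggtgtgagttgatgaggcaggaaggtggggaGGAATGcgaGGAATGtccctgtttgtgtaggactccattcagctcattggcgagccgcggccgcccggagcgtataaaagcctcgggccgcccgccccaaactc
The capitals mark the letters GGAATG, found 3 times, starting 169, 104 and 95 bases before the start site. The letters occurred on either strand in 4136 of the 34788 upstream sequences (11.9%).

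CTSV, a lysosomal cysteine protease, rose from 85.3, 91.8, 106 and 93.9 to 264, 197, 508 and 479 CPM in SW48, while the RKO groups overlapped at 6.8 to 11.1 and 6.33 to 9.14 CPM (difference -2.20 ± 0.36, adjusted p = 0.0012). GLIPR1, a secreted CAP-domain protein, was high in RKO without a call, at 106 to 122 and 121 to 133 CPM, and was at 0.877 to 2.39 CPM in SW48 non-LRCs and 5.8 to 8.59 CPM in SW48 LRCs (difference -2.0 ± 0.23, adjusted p = 3.68e-05). GLIPR1 in SW48 LRCs stood at 6.14% of its level in RKO LRCs, against a bound of 0.0274% for carried-over reads. ECM1, an extracellular matrix protein, and PRSS22, a tryptase, rose by 1.43 ± 0.23 and 1.59 ± 0.21 in SW48 and were at -0.02 and 0.18 in RKO. SPNS2, the sphingosine-1-phosphate transporter, rose in both lines, by 0.79 ± 0.27 in RKO and 2.08 ± 0.19 in SW48 (adjusted p of the difference = 0.0282, not passing without RKO non-LRC 1 or 3, RKO LRC 1 or 4, SW48 non-LRC 4 or SW48 LRC 1 or 3, adjusted p up to 0.0872). Its RKO call (adjusted p = 0.0384) was not passing without RKO non-LRC 1, 2 or 4 or RKO LRC 2 or 3, adjusted p up to 0.144. RPSAP52, a pseudogene transcript, changed by -0.93 ± 0.24 in RKO and 0.47 ± 0.22 in SW48. It overlaps HMGA2 on the opposite strand, whose changes were -0.06 in RKO and 0.05 in SW48.

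All 13 genes that changed in opposite directions also passed the test for the difference. Down in RKO and up in SW48 were TM4SF1, ACP7, IL6R and ELK3, all at 1 CPM or more in each line, and BMERB1, at under 1 CPM in SW48 and named after its values were seen. TM4SF1, a membrane protein of migrating cells, fell from 542, 494, 490 and 520 to 320, 339, 304 and 315 CPM in RKO and rose from 3.46, 1.65, 3.22 and 1.61 to 4.49, 6.24, 9.04 and 9.08 CPM in SW48, with changes of -0.68 ± 0.15 and 1.51 ± 0.23 and a difference of -2.19 ± 0.28 (adjusted p = 0.000108). ACP7, an acid phosphatase gene, fell from 38.1, 37.2, 38.5 and 37.8 to 24.1, 22.6, 23.2 and 23.4 CPM and rose from 4.12, 1.91, 3.11 and 2.27 to 5.06, 5.68, 6.22 and 6.42 CPM. IL6R, the interleukin-6 receptor, was at 31.9 to 38.7 and 24 to 28.1 CPM in RKO and at 10.3 to 14.1 and 18.5 to 21.9 CPM in SW48 (difference -1.17 ± 0.15, adjusted p = 9.53e-05). ELK3, an ETS-family factor, changed by -0.24 in RKO (not passing without RKO non-LRC 1, 2 or 4 or RKO LRC 1, 2 or 3, adjusted p up to 0.0943) and 0.67 in SW48. None of the 4 had overlapping populations in either line.

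Up in RKO and down in SW48 were MYB, SNED1, MIR31HG, PHLDB1, CRIP2 and ARHGEF40. MYB, a transcription factor of intestinal progenitors, rose from 9.36, 6.92, 9.65 and 7.96 to 17.6, 17.6, 17.2 and 15.3 CPM in RKO and fell from 25.5, 22.5, 28.5 and 27.1 to 22.1, 18.4, 18.7 and 17.7 CPM in SW48 (difference 1.43 ± 0.16, adjusted p = 3.66e-05). SNED1, an extracellular matrix gene, changed by 0.90 ± 0.17 and -0.57 ± 0.13, and MIR31HG, the host transcript of miR-31, by 1.19 ± 0.27 and -0.50 ± 0.12. The RKO levels of MIR31HG rested on 52 counts in non-LRCs and 123 in LRCs. Populations overlapped for MIR31HG in SW48 and for CRIP2 in RKO, and otherwise for none of these 6 genes. PHLDB1, CRIP2 and ARHGEF40 had differences of 1.02, 0.97 and 0.95. Their declines in SW48 were small, with adjusted p from 0.0227 to 0.0468. Each of these 6 SW48 calls ended on removal of some single library, from any 1 of 4 for PHLDB1 to any 1 of 15 of the 16 for ARHGEF40 (adjusted p up to 0.156), and CRIP2 in RKO was not passing without RKO non-LRC 2 or RKO LRC 1, adjusted p up to 0.0809, while the differences between the lines kept their calls throughout. TGFB1I1, a focal adhesion adaptor named after its values were seen, was also up in RKO and down in SW48, with changes of 0.26 ± 0.09 and -0.40 ± 0.09 (adjusted p = 0.0383 and 0.0243).

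Genes of pathways that shape intestinal identity were described by list. Over all tested genes, 17.0% rose and 12.7% fell in RKO, 1.8% rose and 0.667% fell in SW48, and 6.16% differed, and each count below is to be read against these shares. At the SW48 shares, a short list without a call is near the background. In the Notch list, 5 of 15 tested members rose and 1 fell in RKO, none passed in SW48, and HES1 and HEY1 differed between the lines. HEY1, a repressor related to HES1, was at 0.52 to 0.915 and 1.3 to 2.66 CPM in RKO and 0.266 to 0.7 and 0.259 to 0.491 CPM in SW48 (difference 2.20 ± 0.50, adjusted p = 0.014). The ligand JAG1 and the receptors NOTCH1 and NOTCH4 rose by 0.54, 0.40 and 1.37 in RKO (NOTCH1 not passing without RKO non-LRC 3 or 4 or RKO LRC 1 or 3, adjusted p up to 0.0737, and NOTCH4 not passing without RKO non-LRC 2 or RKO LRC 1, adjusted p up to 0.0696). The inhibitor NRARP fell by 0.30 on the log2 scale (not passing without RKO LRC 4, adjusted p up to 0.0504). In the Wnt target and stem cell list, 7 of 20 rose and 1 fell in RKO and 3 rose in SW48, and 3 differed. SOX9, a factor of crypt progenitors, stood at 8.8, 9.54, 11 and 8.95 CPM in RKO non-LRCs and 43.9, 44.4, 33.8 and 31.4 CPM in RKO LRCs, while SW48 held 218 to 272 and 223 to 323 CPM, and only the RKO groups were apart (difference 1.82 ± 0.18, adjusted p = 1.19e-05). EPHB3, a receptor of crypt positioning, and NOTUM, a secreted Wnt inhibitor, differed by 1.64 and 1.06 (NOTUM not passing without RKO non-LRC 4 or RKO LRC 2 or 3, adjusted p up to 0.0649). The Wnt feedback gene AXIN2 was at 3.71 to 4.35 and 3.93 to 5.28 CPM in RKO and 304 to 433 and 317 to 414 CPM in SW48 and did not pass the test in either line. LGR5, a stem cell receptor, overlapped between the SW48 groups, at 1.61 to 4.65 and 2.31 to 4.41 CPM, and was at 0 to 0.116 and 0 to 0 CPM in the RKO groups.

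In the Hedgehog list, 4 of 13 tested members rose in RKO, against 17.0% of all tested genes, and none passed in SW48 or for the difference, for which 1 passed with the block. GLI1, the pathway's transcriptional effector and target, rose from 2.18, 2.86, 1.93 and 2.38 to 5.2, 4.7, 4.67 and 4.52 CPM in RKO and was at 0.345 to 0.798 and 0.13 to 0.898 CPM in SW48 (difference 1.25 ± 0.49, adjusted p = 0.148). The receptor PTCH1 changed by 0.18 ± 0.13 in RKO and 0.41 ± 0.13 in SW48 without a call, and passed in SW48 with the block (adjusted p = 0.0325). In the BMP and TGF-beta list, 3 of 18 rose and 1 fell in RKO, near or under the shares over all tested genes, and 1 rose and 1 fell in SW48. BMP4 differed upward (0.69 ± 0.18, adjusted p = 0.0254, not passing without RKO non-LRC 1, 2 or 3 or RKO LRC 3 or 4, adjusted p up to 0.0607). BMP4, a ligand of the pathway, was at 1.41 to 1.68 CPM in RKO non-LRCs and 2.02 to 3.22 CPM in RKO LRCs and far higher in SW48, at 1570 to 1790 and 1630 to 1740 CPM. Its RKO LRC level was 0.155% of that in SW48 LRCs, against the bound of 0.0302%. That sets the bound against the whole level and not against the smaller rise in RKO, for which carried-over reads were not tested. Among interferon-stimulated genes, 10 of 30 rose and 2 fell in RKO and 1 fell in SW48. IRF9 and STAT2, subunits of the interferon-activated factor ISGF3, and IFIT2, an inhibitor of translation, differed by 0.79, 0.45 and 1.24 (IFIT2 not passing without RKO non-LRC 4 or RKO LRC 2 or 4, adjusted p up to 0.0579). The difference of IFITM2 was negative (-2.52 ± 0.65, adjusted p = 0.0274, not passing without SW48 non-LRC 1 or 4 or SW48 LRC 1 or 3, adjusted p up to 0.0873), with a change of -0.30 in RKO and a positive value without a call in SW48, at 0 to 0.115 and 0.14 to 0.513 CPM, where reads shared with its near-identical paralogs make the count uncertain. ICAM1, an NF-kB target, rose by 0.58 ± 0.12 in RKO and was at -0.33 ± 0.14 in SW48 (difference 0.90 ± 0.19, adjusted p = 0.00655).

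FOXO targets and growth arrest genes rose in 9 of 18 tested members in RKO and 3 in SW48. SESN3, a FOXO-induced inhibitor of mTORC1 signaling, rose from 0.915, 1.01, 0.594 and 0.755 to 13.3, 6.83, 8.96 and 9.65 CPM in RKO and from 13, 23, 19.8 and 20 to 31.5, 35.5, 30.2 and 28.7 CPM in SW48, more so in RKO (difference 2.79 ± 0.32, adjusted p = 3.66e-05). Its SW48 call was not passing without SW48 non-LRC 1 or 4 or SW48 LRC 1 or 3, adjusted p up to 0.0726. Polyadenylated histone transcripts rose in 4 of 8 members in RKO and none in SW48, and H2AC6, H2BC5 and H2BC12 differed by 1.08, 1.14 and 0.61 (H2AC6 not passing without RKO non-LRC 1, 2 or 3, RKO LRC 1 or SW48 non-LRC 3 or 4, adjusted p up to 0.0712). None of these 3 differences passed with all 48 sorted libraries, and reads of near-identical histone genes limit these counts. Hypoxia and glycolysis genes included 8 of 28 upward and 2 downward in RKO and none in SW48, without a called difference, against 8 members higher in RKO with the block. DDIT4, an inhibitor of mTORC1 signaling, was at 15.8, 17.9, 13.4 and 23.5 and 49.4, 32.2, 24.9 and 36.4 CPM in RKO and at 524, 16.3, 285 and 413 and 261, 19.6, 165 and 227 CPM in SW48, where replicate 2 was low in both populations. Its difference was 1.89 ± 0.97 (adjusted p = 0.278) and 1.67 ± 0.24 with the block (adjusted p = 0.000752). In the ERK feedback list, DUSP6, the ERK phosphatase, rose by 0.71 ± 0.09 in RKO against 0.19 ± 0.09 in SW48. ETV5, an ERK-induced ETS factor, fell by 0.38 in SW48 against a change of 0.08 in RKO. Both differences passed the test (adjusted p = 0.0259 and 0.00848), that of DUSP6 not passing without RKO non-LRC 2, 3 or 4, RKO LRC 1 or 2, SW48 non-LRC 3 or SW48 LRC 4, adjusted p up to 0.0544. Neither difference passed with all 48 sorted libraries, nor did that of ETV5 without a filter on low counts. Lysosome and autophagy genes rose in 8 of 26 members in RKO and 2 in SW48, against 17.0% and 1.8% of all tested genes, and TPP1, a lysosomal peptidase, and WIPI1, an autophagy factor, differed by 0.57 and 0.44. The difference of WIPI1 (adjusted p = 0.0364) did not pass on removal of any 1 of 11 of the 16 libraries (up to 0.0838), nor with RLE size factors, all 48 libraries or no filter.

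Genes that rose in both lines, without a called difference, were led in size by BHLHE41, GBP2, PROX1, MMP1, ATF3, ARC, ACER2 and TSPAN1. BHLHE41, a circadian repressor, went from 3.73, 2.15, 1.86 and 3.49 to 12.3, 10.3, 8.73 and 9.35 CPM in RKO and from 0.2, 0.127, 0.173 and 0.219 to 2.82, 3.08, 0.995 and 0.713 CPM in SW48. ACER2, a Golgi ceramidase induced by p53, was the most even of them. It rose from 3.24, 3.88, 3.04 and 3.49 to 8.61, 7.32, 6.89 and 9.6 CPM in RKO and from 3.99, 3.69, 4.14 and 3.58 to 10.3, 8.83, 10.5 and 10.1 CPM in SW48, with changes of 1.25 ± 0.14 and 1.36 ± 0.14 and a difference of -0.12 ± 0.19 (adjusted p = 0.786). GBP2, an interferon-inducible GTPase, rose by 2.84 ± 0.38 and 1.78 ± 0.38, and MMP1, the interstitial collagenase, by 1.5 ± 0.25 and 1.79 ± 0.37. ATF3, a stress-induced factor, and ARC, an immediate early gene, rose by 1.42 and 1.97 in RKO and by 1.60 and 1.37 in SW48. PROX1, a factor of intestinal stem-like cells, and TSPAN1, a tetraspanin, rose by 1.26 and 1.66 in RKO and by 1.72 and 1.03 in SW48. CLU, the chaperone clusterin and a marker of regenerating intestinal cells, was at 142, 143, 178 and 174 and 328, 293, 274 and 263 CPM in RKO and at 170, 236, 129 and 135 and 296, 286, 315 and 306 CPM in SW48, with rises of 0.86 ± 0.15 and 0.84 ± 0.15 and a difference of 0.02 ± 0.20. The SW48 calls of BHLHE41, MMP1, ACER2, TSPAN1 and CLU held with each library left out, while those of ARC, PROX1, GBP2 and ATF3 each ended on removal of 1 to 6 single SW48 libraries (adjusted p up to 0.101 for ATF3).

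Among the genes that fell in both lines were CDCA7, H2AZ1, TEDC1, TUSC1, CYP51A1, CHTF18 and CKS1B. CDCA7, a chromatin factor of S phase, fell by 0.78 on the log2 scale in RKO and by 0.49 in SW48. H2AZ1, a histone variant gene, CKS1B, a CDK-binding subunit, and CHTF18, a clamp loader subunit, changed by -0.82 ± 0.14, -0.68 ± 0.12 and -0.58 ± 0.17 in RKO and by -0.54 ± 0.14, -0.54 ± 0.12 and -0.65 ± 0.16 in SW48. CYP51A1, a sterol demethylase, changed by -0.55 ± 0.13 and -0.51 ± 0.12, the smallest gap of these 7 (difference -0.04 ± 0.17). TEDC1, a centriole gene, and TUSC1 changed by -0.74 and -0.65 in RKO and by -0.49 and -0.60 in SW48. Of these 7, CDCA7 alone kept its SW48 call with each library left out, and the others ceased to pass on removal of any 1 of 4 (CKS1B and TUSC1) to 11 (H2AZ1 and CHTF18) libraries, with adjusted p up to 0.147.

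**Figure D4:**
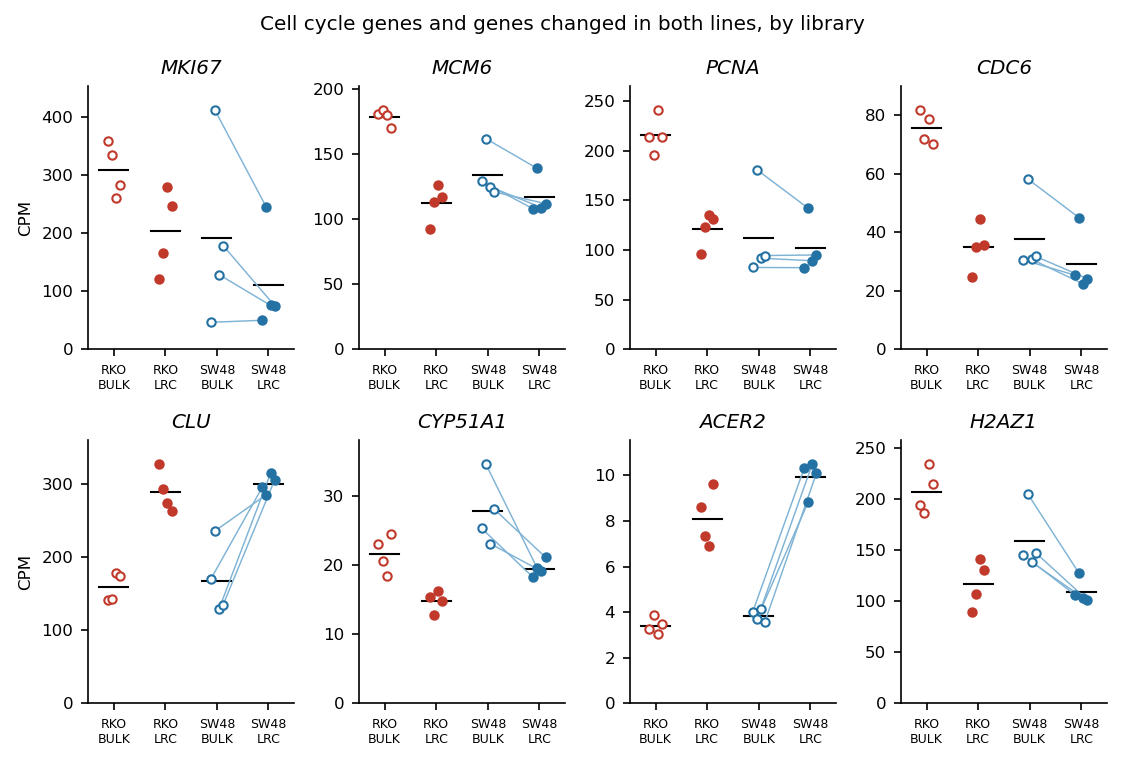
Level in every library of 4 cell cycle genes (upper row) and of 4 genes that passed the test in both lines (lower row), in CPM from 0. Open circles are non-LRCs (BULK), filled circles are LRCs, short black lines are means of 4 libraries, and blue lines join same-numbered SW48 libraries. Replicate 2 of SW48 is high in both populations for the cell cycle genes, while CLU, CYP51A1, ACER2 and H2AZ1 separate the populations in both lines.

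Origin licensing and replication genes were lower in LRCs. Of 53 tested members, 52 had a negative value in each line, and 29 passed the test in RKO against 1 in SW48, with median log2 changes of -0.65 and -0.37. With the replicate block, 47 passed in RKO and 23 in SW48, and 13 differed, all lower in RKO, against 1 without the block (RPA2, a subunit of replication protein A, -0.38 ± 0.08, adjusted p = 0.00803). Without the SW48 non-LRC library of replicate 2, the SW48 median was -0.08, and 41 and 2 members passed in RKO and SW48. This removal kept the LRC library of replicate 2, the highest SW48 LRC library for MCM6 and PCNA, so the SW48 groups were unbalanced. MCM6, a subunit of the replicative helicase, fell from 181, 184, 180 and 170 to 92.6, 113, 126 and 117 CPM in RKO (change -0.67 ± 0.11, adjusted p = 0.000209) and was at 129, 162, 125 and 121 and 108, 139, 109 and 112 CPM in SW48 (change -0.20 ± 0.11, adjusted p = 0.36). Its difference of -0.47 ± 0.15 passed only with the block (adjusted p = 0.0742 without it and 0.0108 with it). PCNA, the sliding clamp, was at 214, 196, 241 and 214 and 95.7, 123, 135 and 131 CPM in RKO and at 82.4, 181, 91.7 and 94.4 and 82.2, 142, 89.2 and 95 CPM in SW48. The PCNA groups were apart in RKO and overlapped in SW48, and its difference of -0.70 ± 0.29 also passed only with the block (adjusted p = 0.00154). The upstream sequence of MCM6, at GRCh37 chr2:136634014-136634263, minus strand, is shown as an example of an E2F-regulated replication gene.
MCM6: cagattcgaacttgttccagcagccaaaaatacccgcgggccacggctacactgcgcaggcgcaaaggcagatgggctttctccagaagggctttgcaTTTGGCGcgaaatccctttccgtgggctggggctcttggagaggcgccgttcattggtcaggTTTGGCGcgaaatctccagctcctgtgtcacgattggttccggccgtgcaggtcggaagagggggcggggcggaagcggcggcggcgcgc
The capitals mark the E2F letters TTTGGCG, found at 152 and 90 bases before the start site. The letters were held on either strand by 554 of the 34788 upstream sequences (1.59%). By gene, at least 1 upstream sequence held them in 13 of 44 replication genes that matched the RefSeq table. Counted the same way, the RBPJ letters were held by 2 of 12 Notch genes and the TEAD letters by 3 of 14 BMP and TGF-beta genes. Shares of genes and shares of sequences have different units and are not compared.

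Mitotic genes were negative in all 41 members in both lines, with medians of -0.60 and -0.64. The libraries spread widely, and only 4 members passed the test in RKO and 1 in SW48. Summed levels ran from 2950 to 3210 CPM in RKO non-LRCs and from 1450 to 2860 CPM in RKO LRCs. In the SW48 groups they ran from 1110 to 3680 CPM and from 905 to 2350 CPM. The fit gave each gene a spread shared by both lines, so the RKO tests included that of SW48. No member differed between the lines. With the replicate block, 33 passed in RKO and 27 in SW48, and still none differed. Without the SW48 non-LRC library of replicate 2 the SW48 median was -0.19. The LRC library of replicate 2, the highest SW48 LRC library for MKI67, stayed in. That removal therefore left the SW48 groups unbalanced and does not show that the decline rests on a single library. MKI67 was at 359, 335, 261 and 283 CPM in RKO non-LRCs, 121, 166, 280 and 247 CPM in RKO LRCs, 46.6, 413, 129 and 179 CPM in SW48 non-LRCs and 50.1, 245, 75.8 and 75.3 CPM in SW48 LRCs, with overlap in both lines. Its changes of -0.60 ± 0.50 and -0.79 ± 0.50 did not pass the test, and the difference was 0.18 ± 0.71. The RKO LRC library of replicate 3 was the closest to the RKO non-LRCs in MKI67, at 280 CPM, and on the second principal component.

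RNA-processing and biosynthetic genes mostly fell in RKO, against a background of 12.7% of all tested genes. Of 28 SR proteins and hnRNPs, 25 fell in RKO and 1 in SW48, with medians of -0.44 and -0.15, and 6 differed, all lower in RKO, against 14 with the replicate block. HNRNPC, an abundant RNA-packaging protein, was at 465, 460, 518 and 492 CPM in RKO non-LRCs and 343, 366, 357 and 361 CPM in RKO LRCs and overlapped in SW48, at 343 to 410 and 352 to 370 CPM (difference -0.41 ± 0.10, adjusted p = 0.0211). HNRNPD, HNRNPA3, HNRNPL, HNRNPF and TRA2A had differences of -0.53, -0.50, -0.45, -0.30 and -0.62, and none of the 6 passed with library sizes in place of TMM factors or without the RKO LRC library of replicate 1 (adjusted p up to 0.097 with single libraries left out). Of 32 MYC and ribosome biogenesis genes, 17 fell in RKO and none passed in SW48, and NOP58, a subunit of box C/D snoRNPs, differed by -0.42 ± 0.11 (not passing without RKO non-LRC 3, RKO LRC 1 or 4 or SW48 non-LRC 1 or 4, adjusted p up to 0.0756). MYC itself changed by -0.39 ± 0.18 and -0.16 ± 0.18 without a call. Of 25 cholesterol synthesis and uptake genes, 20 fell in RKO and 2 in SW48, against 23 and 12 with the block. IDI1, an isomerase of isoprenoid synthesis, was at 116 to 137 and 72.7 to 95.9 CPM in RKO and at 76.8 to 108 and 79.2 to 105 CPM in SW48, and it was the 1 member whose difference passed the test (-0.66 ± 0.16, adjusted p = 0.0199), against 7 with the block.

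Amino acid stress genes under ATF4 control had a median of 0.03 in RKO and -0.35 in SW48. Of 26 tested members, 25 were negative in SW48, but none passed downward without the block and 14 did with it, when 8 were higher in RKO. The summed level of the list ranged from 2910 to 8310 CPM in SW48 non-LRCs. Without the non-LRC library of replicate 2, the SW48 median of the list was -0.59 with 7 members down. The LRC library of replicate 2 stayed in, so the SW48 groups were unbalanced. SLC7A11, the cystine transporter, was the member that differed (1.04 ± 0.29, adjusted p = 0.0417, not passing on removal of any 1 of 10 of the 16 libraries, up to 0.0979), from 68.5, 54.5, 84.6 and 87 to 66.2, 40.9, 51.2 and 45.3 CPM in SW48 and 7.46, 8.17, 4.16 and 4.24 to 9.18, 9.62, 7.2 and 8.29 CPM in RKO. In the unfolded protein response list, 3 of 18 rose and 2 fell in RKO, near the shares of 17.0% and 12.7% over all tested genes, and 2 fell in SW48. It held no called difference, against 5 with the block. HSPA5, the chaperone BiP, changed by 0.16 ± 0.09 and -0.24 ± 0.09 (adjusted p of the difference = 0.0553, and 0.0198 with the block). Of 19 NRF2 targets, 5 rose and 4 fell in RKO and EPHX1, an epoxide hydrolase, differed (0.65 ± 0.16, not passing without RKO non-LRC 2 or 4, RKO LRC 3 or SW48 LRC 3, adjusted p up to 0.0573). Matrix metalloproteinases and TIMPs rose in 6 of 9 tested members in RKO and 2 in SW48, MMP1 and MMP10 in both, where the SW48 call of MMP10 (adjusted p = 0.0468) did not pass on removal of any 1 of 13 of the 16 libraries (up to 0.142), and MMP14 differed (0.54 ± 0.11, adjusted p = 0.00641). Of 13 mitochondrially encoded genes, 12 rose in RKO and 4 in SW48, and none differed, against 1 with the block.

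The other lists held no called difference without the replicate block. These were the lists of sterol efflux and LXR targets, metallothioneins, immediate early genes, EGF receptor family and ligands, complement components, enterocyte genes, keratins, epithelial and mesenchymal state genes, mismatch repair genes, colorectal epithelial markers and non-epithelial markers. None of the 19 goblet and secretory genes that matched a symbol passed the expression filter, and FCGBP matched none. With the block, 3 members differed among the immediate early genes and 3 among the mismatch repair genes, 2 each among the keratins and complement components, and 1 each among the metallothioneins, EGF receptor family, enterocyte and epithelial state genes. In lists with calls above, the block gave 7 interferon-stimulated genes that differed against 4, 6 BMP and TGF-beta genes against 3, 5 lysosome and autophagy genes against 2, 3 MYC and ribosome biogenesis genes against 1, 3 FOXO targets and growth arrest genes against 1, and 2 metalloproteinases and TIMPs against 1. TGFA, an EGF receptor ligand, rose in both lines, by 1.26 ± 0.16 and 0.83 ± 0.13. CEACAM5 and CEACAM1, adhesion molecules of differentiated epithelium, rose in SW48 by 2.05 ± 0.50 (not passing without SW48 non-LRC 1 or 4 or SW48 LRC 3 or 4, adjusted p up to 0.138) and 1.85 ± 0.41 (not passing without SW48 non-LRC 4, adjusted p up to 0.0849). In RKO CEACAM5 was at 0.149 to 0.704 and 0.23 to 1.09 CPM, and neither difference passed. EPCAM, a marker of epithelium, changed by 0.16 in RKO and -0.01 in SW48, without a call.

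**Figure D5:**
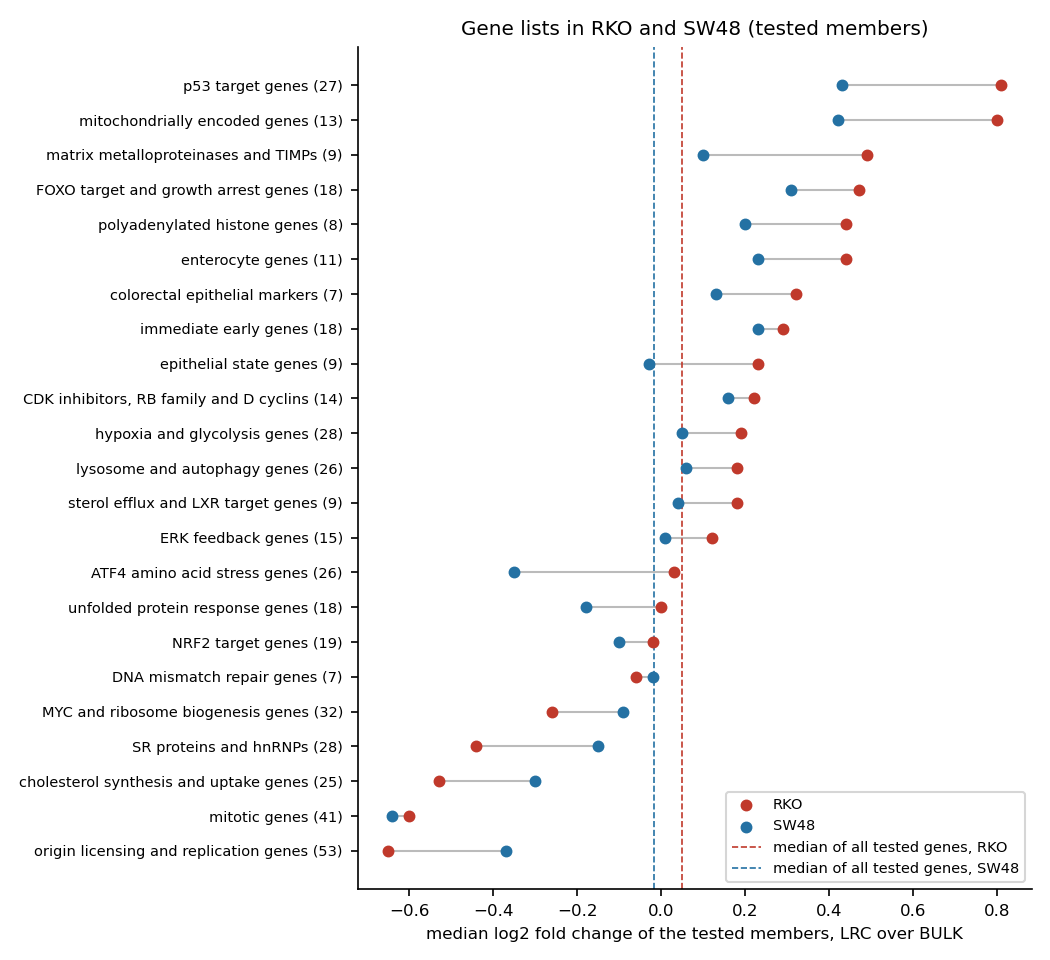
Median log2 fold change from non-LRCs to LRCs in RKO (red) and SW48 (blue) for the 23 gene lists with at least 7 tested members and no member at 0 counts in a whole group, with the number tested in brackets. Dashed lines mark the medians of all tested genes. The p53 target and mitochondrially encoded genes are near the upper end in both lines, the replication genes are lowest in RKO and the mitotic genes lowest in SW48, and in ATF4 genes the lines part.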

How the data were processed

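RNA of sorted LRCs and non-LRCs was sequenced by the authors as single-end reads, and the deposited values are raw read counts per Ensembl gene, 1 table per library. The submitters' processing notes name TopHat, HTSeq, DESeq and the build hg19, without versions, while the annotation release and strand setting are not given in the sources used here. The rows of reads without a feature (6.41% to 9.95% of the reads on genes, without a feature or ambiguous), ambiguous or not unique stayed out of library sizes and tests. Depth was 12717796 to 19874005 reads on genes per library, and its precision covers counting error only.

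The 16 libraries were grouped by label. Counts were scaled by TMM and fitted with group means in edgeR 4.0.16 (R 4.3.3) by quasi-likelihood F-tests. A gene entered when 4 or more libraries held 10 or more counts (14240 genes), and p-values, all two-sided, were adjusted over these genes (Benjamini-Hochberg, threshold 0.05). The contrasts were LRC minus non-LRC in each line and their difference. CPM values use TMM-scaled library sizes unless stated. The fits were first tested on simulated data with 200 changed genes. Simulated log2 differences of 0.5, 1 and 2 between the LRC effects were recovered for 6.5%, 89% and 100% of these genes. Of the calls, 7.14%, 3.26% and 4.31% were false. The changed genes were drawn above a minimum level, with at least 1 CPM in each line. Each simulated gene had the same dispersion in all groups, no other LRC effect and no link between same-numbered libraries. The rates therefore do not cover genes of lower level, the wider SW48 spread or the SW48 libraries that deviated together. A difference near 0.5 could thus mostly go without a call, so a missing call does not show equal effects.

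Alternatives were DESeq2 1.42.0, limma 3.58.1 (voom with quality weights), RLE size factors, library sizes alone, other filters, all 48 sorted libraries, each line alone, an absolute log2 change of at least 1, the replicate block and each library left out. A block in SW48 only and the removal of SW48 replicate 2 were chosen after seeing the data. Same-numbered libraries deviated together in SW48 (r = 0.369, 0.562, 0.25 and 0.171 across genes, from deviations from the group means on the log2 CPM scale) but not in RKO (-0.0161, -0.0623, -0.0711 and 0.0313), and the labels give the numbers only. No pair of replicates agreed within sampling noise (mean chi-square per gene of at least 2.99).

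The genes named by size had at least 1 CPM in each line. They were the 10 with the largest positive and negative called differences, the 8 up and 8 down called in both lines without a called difference, and up to 6 of each pattern of opposite calls. Of each of 36 gene lists, the 4 members with the smallest p for the difference were eligible, with a set of single cell cycle, Wnt, Hedgehog and intestinal marker genes, and 608 of 734 list members were tested. The compared samples, members and lists were chosen with earlier results of these data known. Gene symbols and GRCh37 positions came from the reference tables given here, and 39260 of 54127 identifiers (72.5%) matched a symbol. Upstream sequences are from RefSeq. Control samples of DLD1 were not used here, and a few genes that these rules name are not reported here.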

Additional observations from a re-analysis of the deposited data

Results flagged for a closer look

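The LRC effect differed between RKO and SW48 by the test of the difference for 877 genes, and 27 of the genes named by size were among them. The log2 differences (RKO minus SW48) were 5.11 for FOXJ1, 4.23 for PLCE1, 4.16 for CDC20B, 4.01 for HES1, 3.93 for MAL2, 3.54 for MYH15, 3.48 for INPP5D, 3.47 for PPL, 3.43 for PLEKHG4 and 3.21 for CD82. They were -3.55 for CCN2, -2.2 for CTSV, -2.19 for TM4SF1, -2.0 for GLIPR1, -1.73 for ACP7, -1.45 for ECM1, -1.41 for PRSS22, -1.4 for RPSAP52 and -1.3 for SPNS2. Among genes with opposite calls they were 1.69 for MIR31HG, 1.47 for SNED1, 1.43 for MYB, 1.02 for PHLDB1, 0.97 for CRIP2, 0.95 for ARHGEF40, -1.17 for IL6R and -0.91 for ELK3.

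In 15 of 168 groups of 4 libraries, over 42 genes, the library at one end stood apart from the other 3, where chance gives about 1 in 20. Of these, 5 were the SW48 non-LRC library of replicate 2, with 47.2 CPM of CKS1B, 205.0 CPM of H2AZ1, 3.44 CPM of FOXJ1 and 9.99 CPM of MYH15 on the high side and 1.34 CPM of PRSS22 on the low side. The SW48 non-LRC library of replicate 3 held 129.0 CPM of MAL2. In SW48 LRCs, replicate 1 held 5.19 CPM of GBP2 and replicate 3 held 6.97 CPM of MMP1, both high. The RKO LRC library of replicate 1 was high for CD82 (51.1 CPM) and ECM1 (170.0 CPM) and low for CDCA7 (27.4 CPM), and those of replicates 3 and 4 were high for CHTF18 (13.9 CPM) and CCN2 (2.51 CPM). In RKO non-LRCs, replicate 3 was low for PROX1 (1.41 CPM) and replicate 1 was low for SNED1 (4.01 CPM). The causes were not tested.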

How the results depend on the processing

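The RKO calls stayed within 1.5 times of 4230 under every alternative except an absolute log2 change of at least 1, while the SW48 calls and those in both lines moved more. The called differences numbered 877, or 804 to 1274 with DESeq2, RLE size factors, library sizes alone, all 48 libraries or other filters. SW48 calls, calls in the same direction and calls in opposite directions numbered 351, 167 and 13 as reported. They were 601, 295 and 26 with DESeq2 and 608, 277 and 24 without a filter on low counts. Opposite calls were 8 with all 48 libraries, SW48 calls were 226 with at least 1 CPM in each line and 105 in a fit of its 8 libraries alone, and 210 with 8 opposite calls were found with at least 10 counts in every library. Without SW48 replicate 2 in both populations the differences were 1777 (874 higher and 903 lower in RKO), with 599, 286 and 41 calls. With voom the differences were 2271, with 1759, 762 and 114 calls. With an absolute log2 change of at least 1, there were 308 differences, 662 RKO calls, 103 SW48 calls, 23 in the same direction and 0 in opposite directions. The cause of these shifts was not tested beyond the libraries, genes and thresholds that each alternative removes.

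With the replicate block, the differences were 1680, the SW48 calls 1167, and the calls in the same and opposite directions 634 and 59, and with the pairing in SW48 only they were 1858, 1273, 672 and 74. Of the 877 differences, 873 were also called with the block.

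Leaving out each library in turn gave 583 to 1624 differences, 3164 to 4895 RKO calls, 144 to 493 SW48 calls, 70 to 221 in the same direction and 4 to 30 in opposite directions. The differences were 583 without RKO LRC replicate 1 and 1624 without SW48 non-LRC replicate 2. The SW48 calls, and those in the same direction, fell to 144 and 70 without SW48 non-LRC replicate 4, 201 and 93 without SW48 LRC replicate 1, 156 and 73 without SW48 LRC replicate 3, and 205 and 97 without SW48 LRC replicate 4. Opposite calls were 4 to 8 without one of these 4 libraries, RKO non-LRC replicate 1, RKO LRC replicate 2 or 3, or SW48 non-LRC replicate 1, and 30 without SW48 non-LRC replicate 2. Of 63 named genes with a called difference, 38 kept the call under every setting that gave a value for them (25 to 27 settings a gene), and no value changed sign among them. With all 48 sorted libraries 14 named genes lost the call, among them BMP4, ECM1, IDI1, IRF9, IFIT2, NOTUM and SLC7A11. BMP4 also lost it with voom and without a filter on low counts. Depth and 4 libraries a group limit what can be detected, most of all for genes of few counts.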

Other observations

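The following 6 genes were picked after their values were seen, because they rose in SW48 LRCs, and stand for no gene group. RPTN, which encodes repetin, was at 8.91, 1.27, 6.79 and 4.53 CPM in SW48 non-LRCs and 56.9, 27.5, 77.6 and 83.1 CPM in SW48 LRCs, without overlap (log2 change 3.5 ± 0.40, adjusted p = 0.000253). HEPHL1, a copper-dependent ferroxidase gene, was at 1.73, 1.59, 1.21 and 2.05 and 18.8, 5.89, 30.1 and 34.1 CPM (3.76 ± 0.47, adjusted p = 0.00132). FLG, which encodes filaggrin, PADI1, a deiminase of the epidermis, and S100A9, a calgranulin, rose by 3.61 ± 0.65, 3.56 ± 0.44 and 4.50 ± 0.72 at 0.701 to 2.82, 1.35 to 2.24 and 0.898 to 3.23 CPM in SW48 LRCs (adjusted p = 0.0128, 0.00129 and 0.00641). RPTN had 1 count over the 8 RKO libraries, and HEPHL1, FLG, PADI1 and S100A9 had 0 counts in each, so no difference between the lines is given. CPA4, a carboxypeptidase, rose in both lines, by 2.41 ± 0.52 in RKO and 3.46 ± 0.35 in SW48, and its difference did not pass the test (adjusted p = 0.441).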
